A study of Homo sapiens with 6 samples.

Results

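The cytosolic ribosomal protein genes encode the protein parts of the large and small subunits of the ribosome. They were taken by symbol: protein-coding genes named RPL or RPS with a number, the acidic stalk genes RPLP0, RPLP1 and RPLP2, and RPSA, without the RPS6K kinases. GENCODE 29 held 86 such genes, 84 of the 18677 rows of the count table were matched to them, and 83 of these were among the 17675 genes tested. They comprised 43 genes of the large subunit, 31 of the small subunit, 3 of the stalk and 7 paralogs of other members. RPL3L, a muscle paralog of RPL3, had 28 counts over the control libraries and 27 over the knockout libraries and was not tested. RPL10L and RPS4Y1 were not analysed here.

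The cells were H1299, an established line from a human lung cancer of the non-small cell type. A group of 3 libraries came from cells with 1 guide RNA against SETDB1 (sg1) and a group of 3 from control-knockout cells. Both groups were kept in the same medium with puromycin. SETDB1 is a histone methyltransferase that places the repressive H3K9me3 mark. No label states that replicates came from different cultures or clones, or when the libraries were made, so p-values measure only the spread between these samples.

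A ribosome needs each of its proteins in matched amounts, although their genes are scattered over nearly all chromosomes. Many of these mRNAs begin with a C and a run of pyrimidines, the terminal oligopyrimidine (TOP) motif, through which the mTORC1 pathway and LARP1 control their translation. Ribosomal protein mRNAs are short and among the most abundant of a dividing cell, and an excess of unassembled protein is normally degraded.

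The start sites of 7 members show what the promoters share and where the members part. RPS16, RPS19 and RPS27L were the steepest falls, RPL13A, RPS21 and RPS29 were among the largest rises, and RPL18 lies on the same chromosome arm as RPS16 and RPS19 but rose. Each line gives 10 bases before the RefSeq start and 20 bases from the start on, 5′ to 3′ on the gene's strand (GRCh38.p14), and capitals mark the pyrimidine run that begins with C at the start.
RPS16 (chr19:39435930-39435959, minus strand): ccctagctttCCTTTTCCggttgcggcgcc
RPS19 (chr19:41860245-41860274, plus strand): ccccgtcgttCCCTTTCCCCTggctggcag
RPL18 (chr19:48619159-48619188, minus strand): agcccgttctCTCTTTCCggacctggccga
RPL13A (chr19:49487598-49487627, plus strand): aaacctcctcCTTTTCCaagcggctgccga
RPS21 (chr20:62387093-62387122, plus strand): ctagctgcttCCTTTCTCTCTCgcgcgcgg
RPS29 (chr14:49598691-49598720, minus strand): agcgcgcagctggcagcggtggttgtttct
RPS27L (chr15:63157458-63157487, minus strand): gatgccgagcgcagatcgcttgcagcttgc
The falling genes RPS16 and RPS19 and the rising genes RPL18, RPL13A and RPS21 all carry the run at this start, and neither RPS29 nor RPS27L does.

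Most ribosomal protein mRNAs were slightly higher in the SETDB1 knockout, and a minority was lower. Of the 83 genes tested, 56 were higher and 11 lower by edgeR's quasi-likelihood test (Benjamini-Hochberg adjusted p under 0.05 over all genes), and 16 were not called. Over all genes tested, 31.9% were called higher and 31.6% lower (63.5% in either direction), so the 67.5% of ribosomal protein genes called higher stood above the background and the 13.3% called lower below it. The median log2 fold change was 0.21 for the 83 genes and 0.01 for all genes tested. Of the 67 called members, 56 changed by under 1.5-fold. When libraries are compared directly, the 3 knockout libraries all lay above the 3 control libraries for 55 members and below them for 13, against 33.5% and 33.3% of all genes.

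Ribosomal protein mRNAs are short, and short transcripts of other genes also tended to be higher in the knockout. The median coding length was 453 bases for the members and 1419 bases for the other coding genes, and the median transcript length was 709 and 2872 bases. Other coding genes with transcripts of at most 500 bases had a median log2 fold change of 0.21, those of 500 to 750 bases 0.17, and those above 5000 bases -0.14. The 37 members with transcripts of 500 to 750 bases had a median of 0.21. With the trend on coding length taken out of all genes, 41 members were higher and 14 lower, with a median of 0.12. With the trend on transcript length taken out, 33 were higher and 18 lower, with a median of 0.06. Whether length has a part in the rise was not tested.

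**Figure D1:**
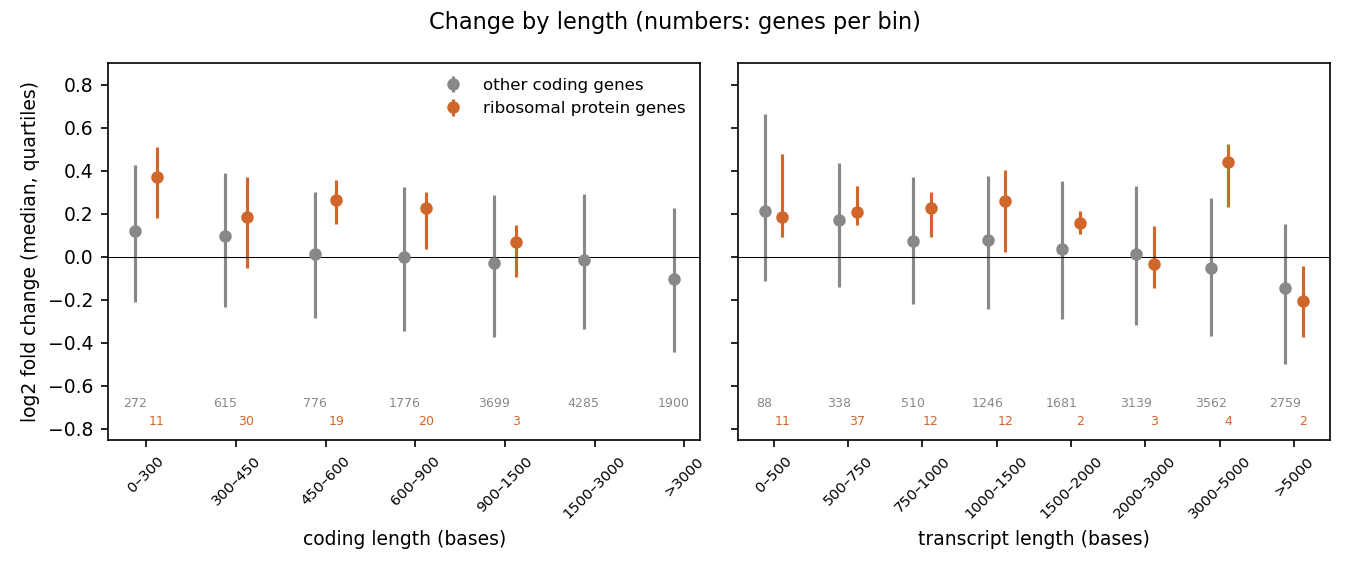
Log2 fold change (SETDB1 knockout over control) by coding length (left) and transcript length (right), with the median as a point, the quartiles as a line and the number of genes in each bin below. Other coding genes (grey) go from a median of 0.21 at the shortest transcripts to -0.14 at the longest, and ribosomal protein genes (orange) lie above 0 in the bins that hold most of them.

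The members together took 4.13, 4.26 and 4.54% of all counts in the control libraries and 4.83, 4.996 and 5.08% in the knockout libraries. All 3 knockout libraries were above all 3 control libraries. The mean share was 4.31% ± 0.21 (SD, n = 3) in the control and 4.97% ± 0.131 (SD, n = 3) in the knockout, a ratio of 1.15. A two-sided exact permutation test gave p = 0.1, the smallest value that 3 against 3 libraries allow. The share of the large-subunit and stalk genes was higher by a ratio of 1.19 and that of the small-subunit genes by 1.11 (paralogs left out). The small-subunit class holds RPS16 and RPS19, and whether they have a part in its smaller ratio was not tested.

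SETDB1 itself stood at 45.01, 44.0 and 41.6 CPM (counts scaled to library size by TMM) in the control libraries and at 40.6, 36.1 and 39.1 CPM in the knockout libraries. Its log2 fold change was -0.17 ± 0.06 (SE; edgeR adjusted p = 0.0151), a call that did not hold when SETDB1-knockout replicate 2 was left out (-0.13, edgeR adjusted p = 0.0896) or libraries were scaled by size alone (-0.13, edgeR adjusted p = 0.0605). It was also lost with the trend on coding length (-0.11, edgeR adjusted p = 0.116) or transcript length (-0.12, edgeR adjusted p = 0.0895) taken out. An edit that shifts the reading frame need not lower an mRNA, so this level checks the labels only in part. Library totals ranged from 29532057 to 35941288 counts, and replicates differed by more than counting error. The keratin genes KRT8 and KRT18, which mark the epithelial origin of the line, were detected in every library and fell. The epithelial markers, of which 2 of 5 were tested, summed to 942 to 1013 CPM in the control and 482 to 496 CPM in the knockout. The lung lineage factor NKX2-1 was near 0, at 0.505 to 0.537 CPM in the control. Fibroblast markers (2 of 5 tested) summed to 1.45 to 1.74 CPM in the control and 0.733 to 0.936 CPM in the knockout, and leukocyte markers (1 of 5 tested) to 0.0315 to 0.0565 and 0.549 to 0.761 CPM. In bulk RNA, fewer cells of a type and less RNA per cell cannot be told apart.

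The members that fell lay where the other genes fell as well. Each member was set beside its neighbours, the 25 nearest expressed genes on each side that were not themselves ribosomal protein genes (mean log2 CPM above 3). All 11 members that fell had neighbours with a median log2 fold change below 0. Of the 56 members that rose, 37 had neighbours with a median above 0 and 19 had neighbours with a median below 0. Among all 83 members, called or not, 40 had neighbours with a median above 0 and 43 below 0. The same shares were not counted for all genes that fell or rose. Over the 83 members, the log2 fold change and the median of the neighbours had a Pearson r of 0.861 and a Spearman rho of 0.844. Without the 12 members of chromosome 19 these were 0.807 and 0.787. For 2067 other coding genes above 100 CPM they were 0.583 and 0.632. These are descriptions across genes of the same libraries, and members that lie close together share neighbours.

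Beyond their neighbourhood, most members stood slightly higher than the genes around them before transcript length was taken into account. When the median of the neighbours was entered as an offset in the same edgeR fit, 49 members (59.0%) were higher than their neighbours, 2 were lower and 32 were not called. Over the 17591 genes that could be compared in this way, 30.4% were called higher and 26.4% lower. The median difference was 0.18 for the members and 0.02 for all genes tested, and 74 members were above their neighbours' median and 9 below it. This was not particular to the members: of 60 ribosome assembly factors 34 (56.7%) were higher than their neighbours and 2 lower, with a median difference of 0.18. The share higher was 46.7% for 15 other TOP mRNAs, 41.7% for 12 RNA polymerase I genes and 36.4% for 11 ribosomal protein chaperones. It was 21.4% for 14 genes that control TOP translation and 9.1% for 11 snoRNA hosts. Lower than their neighbours were 6 of the 14 genes that control TOP translation and 3 of the 11 snoRNA hosts. The same held for 2 of the 15 other TOP mRNAs, 1 RNA polymerase I gene and 1 chaperone. The log2 fold changes of the members had an SD of 0.32 before and 0.17 after the neighbours' median was taken out. Of the 56 members that rose, 41 were also above their neighbours. Of the 11 that fell, 10 were not distinguished from their neighbours and 1, RPL7A, was lower. A further 8 members without a call against the control were higher than their neighbours. With the trend on transcript length taken out, 24 of the 83 members were above and 11 below their neighbours. The 24 are a share near the 30.4% of all genes called higher in the fit without this step. For all genes this share was not counted with the trend taken out. The median was then 0.0228 for the members and 0.0159 for all genes. With the trend on coding length taken out, 36 members were above and 5 below, with a median of 0.10 for the members and 0.0186 for all genes.

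**Figure D2:**
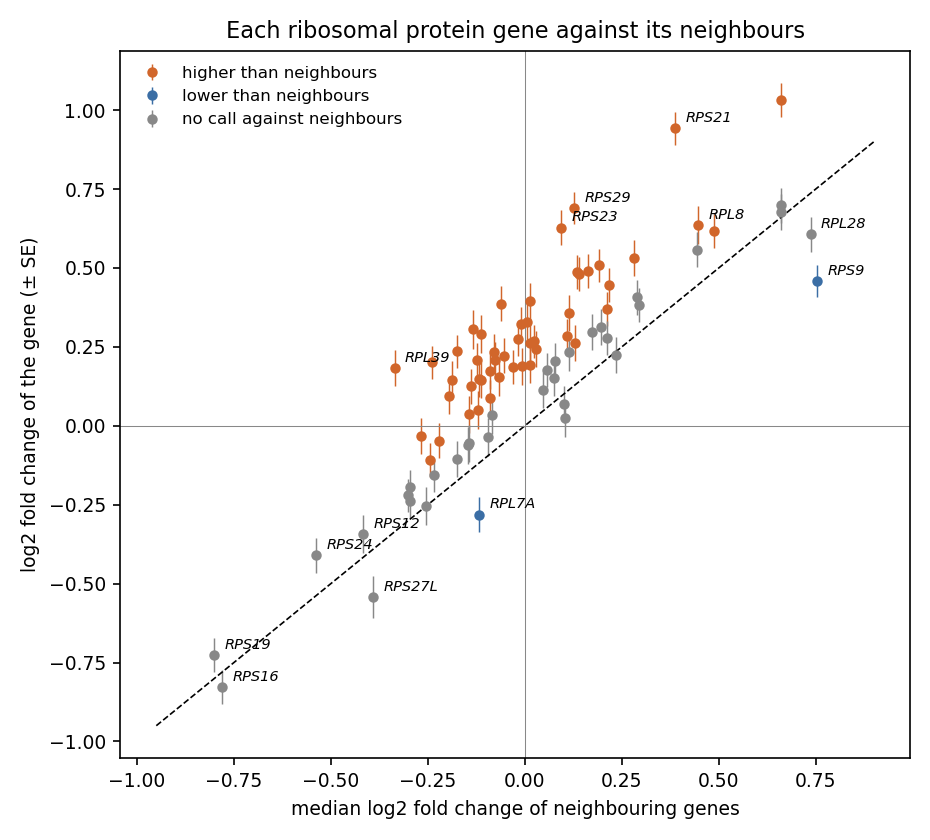
Log2 fold change (SETDB1 knockout over control, ± SE) of each of 83 ribosomal protein genes against the median log2 fold change of its neighbours, with the dashed line marking equal values. The points follow the line and most lie above it: 49 were called higher than their neighbours (orange), 2 lower (blue) and 32 neither (grey).

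Chromosome 19 carried the steepest falls beside large rises. Its 12 members were all called, 10 higher and 2 lower, and values are given for 9 of them. In chromosomal order their log2 fold changes went from 0.15 for RPS15 through 0.51 for RPL36 and 0.53 for RPS28 to -0.83 for RPS16 and -0.73 for RPS19. They then went to 0.62 for RPL18, 0.68 for RPL13A, 0.46 for RPS9 and 0.61 for RPL28. The medians of the neighbours went the same way, at -0.78 around RPS16, -0.80 around RPS19 and 0.49 around RPL18. Of these 9, only RPS15 differed in sign from its neighbours, whose median was -0.12.

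RPS16, a protein whose tail reaches the decoding site of the small subunit (ENSG00000105193, chromosome 19, 39433207 to 39435948), had 1163, 1162 and 1210 CPM in the control libraries. In the knockout libraries it had 648, 673 and 670 CPM. The groups did not overlap, and the log2 fold change was -0.83 ± 0.05 (SE; edgeR adjusted p = 6.62e-11), a 1.78-fold fall. Against its neighbours it was not called (-0.05 ± 0.05, edgeR adjusted p = 0.469), and 23 of its 50 neighbours had a lower log2 fold change. It was below them with the trend on transcript length taken out (-0.22, edgeR adjusted p = 0.00202).

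RPS19, needed for small subunit maturation and often mutated in Diamond-Blackfan anaemia (chromosome 19, 41859918 to 41872926), went from 1377, 1364 and 1411 CPM to 827, 829 and 854 CPM. Every knockout library lay below every control library, with a log2 fold change of -0.73 ± 0.05 (SE; edgeR adjusted p = 4.57e-10). It stood among its neighbours (0.07 ± 0.05, edgeR adjusted p = 0.244). With 10 neighbours on each side it was above them (0.20, edgeR adjusted p = 0.00339), and with the trend on transcript length taken out it was below them (-0.13, edgeR adjusted p = 0.0423).

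RPL13A, known for its phosphorylation after interferon (chromosome 19, 49487554 to 49492308), went from 703, 716 and 760 CPM to 1108, 1177 and 1198 CPM. The groups did not overlap, and its log2 fold change was 0.68 ± 0.06 (SE; edgeR adjusted p = 3.04e-09), beside a neighbours' median of 0.66. It was not called against its 50 neighbours (0.02, edgeR adjusted p = 0.838). With no minimum level for the neighbours it was below them (-0.19, edgeR adjusted p = 0.00832).

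RPS9, near the entry of the mRNA channel, had 325, 325 and 328 CPM in the control and 443, 446 and 457 CPM in the knockout. It rose by 0.46 ± 0.05 on the log2 scale (SE; edgeR adjusted p = 1.62e-07) without overlap of the groups. Its neighbours had a median of 0.75, and the difference of RPS9 from them was -0.29 ± 0.05 (edgeR adjusted p = 6.10e-05). Only 7 of its 50 neighbours had a lower log2 fold change, so that a gene that rose was among the lowest of its surroundings.

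**Figure D3:**
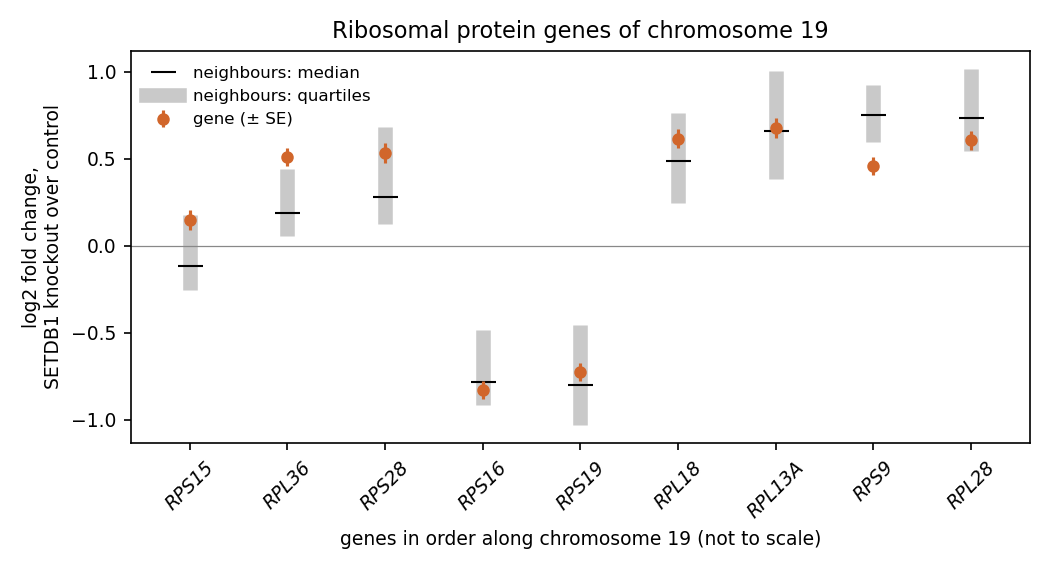
Log2 fold change (SETDB1 knockout over control, ± SE) of 9 ribosomal protein genes of chromosome 19 in chromosomal order (orange), with the median (black line) and quartiles (grey bar) of their neighbours. RPS16 and RPS19 at -0.83 and -0.73 fell among falling neighbours, and RPS9 at 0.46 lay below its neighbours' median of 0.75.

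Some members away from chromosome 19 also rose beyond their surroundings. RPS21, a small protein of the small subunit (chromosome 20, 62387116 to 62388520), had 259, 247 and 244 CPM in the control and 470, 482 and 491 CPM in the knockout. The groups did not overlap, and the log2 fold change was 0.94 ± 0.05 (SE; edgeR adjusted p = 7.13e-12). Its neighbours had a median of 0.39, and the difference was 0.56 ± 0.05 (edgeR adjusted p = 2.60e-08).

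RPS29, a zinc-binding protein of the small subunit (chromosome 14, 49570984 to 49599164), went from 163, 155 and 159 CPM to 257, 251 and 261 CPM. All knockout libraries were higher, by 0.69 ± 0.05 on the log2 scale (SE; edgeR adjusted p = 4.62e-10). The median of its neighbours was 0.13, 49 of the 50 lay below it, and the difference was 0.56 ± 0.05 (edgeR adjusted p = 1.38e-08). RPS23, which lies at the decoding centre (chromosome 5, 82273358 to 82278577), went from 489, 502 and 541 CPM to 762, 799 and 806 CPM. It rose by 0.63 ± 0.06 and stood 0.53 ± 0.06 above its neighbours (edgeR adjusted p = 8.27e-09 and 1.22e-07), but 54.1% of its coding bases overlap exons of ATG10. RPL8, near the peptidyl transferase centre, went from 1113, 1119 and 1163 CPM to 1639, 1796 and 1840 CPM. Its log2 fold change was 0.64 ± 0.06 (SE; edgeR adjusted p = 1.24e-08) beside a median of 0.45 for its 30 neighbours. It was called above them (0.19 ± 0.06, edgeR adjusted p = 0.00993), a call lost with 10 or 50 neighbours on each side (0.06 and 0.11, edgeR adjusted p = 0.407 and 0.129). It was also lost without SETDB1-knockout replicate 2 (0.16, edgeR adjusted p = 0.0750), SETDB1-knockout replicate 3 (0.17, edgeR adjusted p = 0.0601) or control replicate 2 (0.18, edgeR adjusted p = 0.0576).

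The other steep falls were small-subunit genes and RPL7A. RPS24, a small-subunit gene also mutated in Diamond-Blackfan anaemia (chromosome 10, 78033732 to 78056813), went from 670, 686 and 749 CPM to 511, 533 and 539 CPM. Its log2 fold change was -0.41 ± 0.06 (SE; edgeR adjusted p = 3.19e-06), and its neighbours had a median of -0.54. It was not called against them (0.13, edgeR adjusted p = 0.0630), although it was without SETDB1-knockout replicate 1 (0.20, edgeR adjusted p = 0.0111) or control replicate 3 (0.19, edgeR adjusted p = 0.00348). It was also called above them by DESeq2 and limma-voom (adjusted p = 0.0462 and 0.0442) and, in edgeR, with 50 neighbours on each side (0.20, adjusted p = 0.00554) or pseudogene rows added (0.16, adjusted p = 0.0206). RPS12 (chromosome 6, 132814441 to 132817564) went from 888, 921 and 1017 CPM to 713, 758 and 758 CPM. It fell by 0.34 ± 0.06 on the log2 scale (SE; edgeR adjusted p = 5.23e-05), beside a neighbours' median of -0.42. With the trend on transcript length taken out, its difference from the neighbours turned from 0.08 to -0.15 (edgeR adjusted p = 0.299 and 0.0453). RPL7A (chromosome 9, 133348214 to 133351426) went from 991, 1005 and 1090 CPM to 831, 856 and 853 CPM, without overlap. Its log2 fold change was -0.28 ± 0.06 and its difference from the neighbours -0.16 ± 0.06 (edgeR adjusted p = 2.10e-04 and 0.0173). The second of these was lost with 10 neighbours on each side (-0.12, edgeR adjusted p = 0.0859) and with neighbours within 1 Mb (-0.07, edgeR adjusted p = 0.290). It was also lost without control replicate 3 (edgeR adjusted p = 0.0516) and without SETDB1-knockout replicate 1, 2 or 3 (edgeR adjusted p = 0.0535, 0.0501 and 0.0686).

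**Figure D4:**
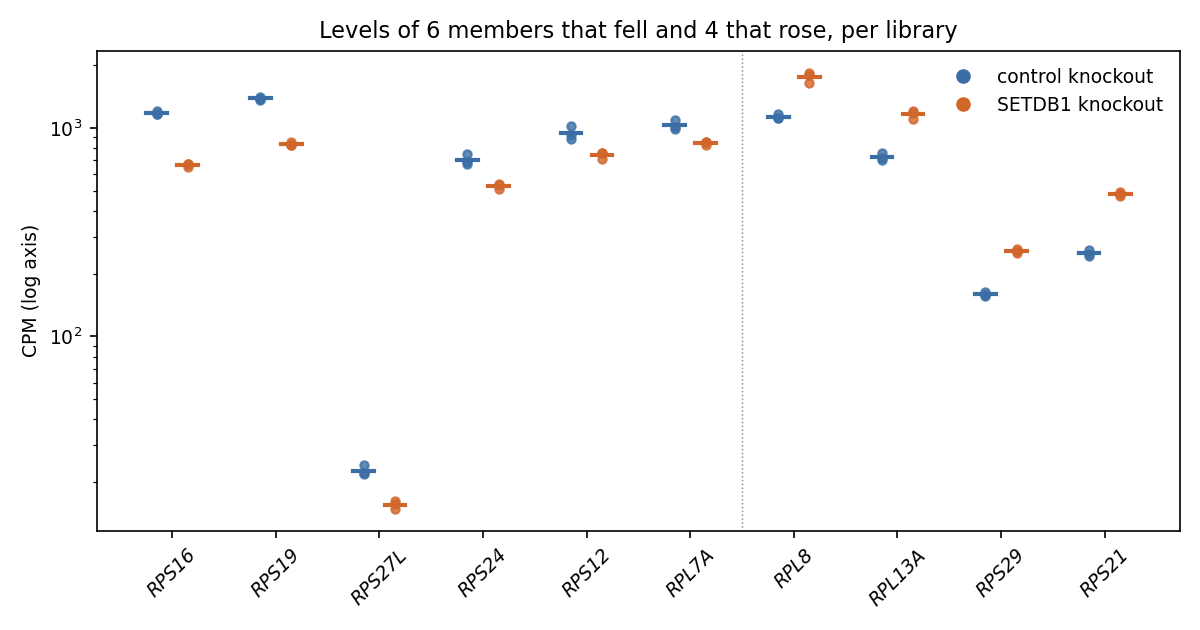
CPM per library (log axis) of 6 ribosomal protein genes that fell (left of the dotted line) and 4 that rose (right), with points for the 3 libraries of each group and a bar for their mean. The groups do not overlap for any of the 10 genes, from RPS16 at 1162 to 1210 CPM against 648 to 673 CPM, to RPS21 at 244 to 259 CPM against 470 to 491 CPM.

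Both subunits took part in the rise. Of the 43 large-subunit genes 31 were higher and 5 lower, with a median log2 fold change of 0.22, and of the 31 small-subunit genes 21 were higher and 4 lower, also with a median of 0.22. The small subunit spread more widely (SD 0.41) than the large subunit (SD 0.25). Among the genes that were not called were RPS6, the substrate of S6 kinase, with a log2 fold change of 0.04, and RPS4X at 0.05.

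The stalk, which recruits the GTPase factors of translation, was mixed. RPLP2 went from 325, 326 and 341 CPM to 395, 397 and 403 CPM (0.27 ± 0.05 on the log2 scale, SE; edgeR adjusted p = 1.40e-04). Its call was lost with the trend on transcript length taken out (0.10, edgeR adjusted p = 0.0885). RPLP0, the anchor of the stalk, had 1225, 1252 and 1348 CPM in the control and 1287, 1355 and 1366 CPM in the knockout, with overlapping libraries (0.07 ± 0.06, edgeR adjusted p = 0.316). RPLP1 had 888, 883 and 942 CPM in the control and 831, 839 and 849 CPM in the knockout. Its libraries did not overlap, yet it missed the threshold (-0.11 ± 0.05, edgeR adjusted p = 0.0903). RPLP1 was called lower by DESeq2 (adjusted p = 0.0490) and, in edgeR, with the trend on coding length (-0.22, adjusted p = 0.00166) or transcript length (-0.20, adjusted p = 0.00316) taken out. Against its neighbours, whose median was -0.25, RPLP1 was called higher (0.14 ± 0.05, edgeR adjusted p = 0.0349). That call was lost with 50 neighbours on each side or no minimum level (0.11 and 0.08, edgeR adjusted p = 0.0888 and 0.209). It was also lost with the coding or transcript length trend taken out (0.03 and 0.05). Omitting SETDB1-knockout replicate 2 or 3 or control replicate 1 or 2 lost it as well.

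RPL5 and RPL11 travel together to the ribosome with the smallest rRNA of the large subunit and, when free, bind MDM2. RPL5 had 784, 808 and 887 CPM in the control and 790, 819 and 815 CPM in the knockout, with overlapping groups (-0.03 ± 0.06, edgeR adjusted p = 0.644). RPL11 went from 456, 466 and 536 CPM to 581, 607 and 614 CPM, without overlap (0.31 ± 0.06, edgeR adjusted p = 2.50e-04). Both stood above their neighbours, by 0.24 and 0.44 (edgeR adjusted p = 0.00175 and 5.69e-06). The difference of RPL5 lost its call with the trend on transcript length taken out (0.10, edgeR adjusted p = 0.158). In that setting RPL5 was called lower than in the control (-0.14, edgeR adjusted p = 0.0394). RPSA, also known as a laminin receptor, went from 544, 555 and 602 CPM to 701, 734 and 744 CPM (0.36 ± 0.06, edgeR adjusted p = 1.59e-05).

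Some ribosomal proteins have a close paralog, and the share of the paralog differed between the groups without overlap in 5 of 6 pairs. For single genes, 33.5% of all genes tested were higher and 33.3% lower without overlap. RPL36AL, a retrogene copy of RPL36A, made up 38.0, 38.1 and 38.9% of the summed CPM of the pair in the control and 49.0, 50.8 and 51.0% in the knockout. RPL36AL rose by 0.48 ± 0.05 on the log2 scale and RPL36A fell by 0.22 ± 0.05 (edgeR adjusted p = 2.13e-07 and 9.39e-04). The neighbours of RPL36AL had a median of 0.14 and those of RPL36A -0.30. RPL36AL stood 0.34 ± 0.05 above its neighbours (edgeR adjusted p = 2.44e-05), and RPL36A was not called against its own (0.08, edgeR adjusted p = 0.185).

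RPS27L made up 8.76, 8.76 and 8.77% of its pair with RPS27 in the control and 4.47, 4.86 and 4.54% in the knockout. RPS27L went from 21.9, 22.1 and 24.1 CPM to 14.9, 16.2 and 15.8 CPM, and RPS27 from 228, 231 and 251 CPM to 318, 317 and 332 CPM. Their log2 fold changes were -0.54 ± 0.07 and 0.45 ± 0.05 (SE; edgeR adjusted p = 7.18e-07 and 6.39e-07). The neighbours moved in the same directions, with medians of -0.39 and 0.22. RPS27 was called above its neighbours (0.23, edgeR adjusted p = 0.00146), but not with the coding or transcript length trend taken out (0.10 and 0.03). RPS27L was not called against its own (-0.15, edgeR adjusted p = 0.0610). With 50 neighbours on each side or a block for the replicate number it was below them (edgeR adjusted p = 0.0464 and 0.0479). It was also below with the coding length trend taken out (-0.30, edgeR adjusted p = 8.11e-04).

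In the pair of RPL22L1 and RPL22, the share of RPL22L1 went from 11.2% ± 0.507 to 13.9% ± 1.02 (SD, n = 3). RPL22L1 rose by 0.32 ± 0.05 on the log2 scale (edgeR adjusted p = 3.96e-05) and RPL22 was not called (-0.04, edgeR adjusted p = 0.631). RPL22L1 stood 0.33 above its neighbours (edgeR adjusted p = 3.67e-05), and RPL22 was not called against its own (0.06, edgeR adjusted p = 0.409). The share of RPL7L1 went from 17.3% ± 0.344 to 12.7% ± 0.0883 (SD, n = 3), with log2 fold changes of -0.24 for RPL7L1 and 0.29 for RPL7 (edgeR adjusted p = 7.02e-04 and 3.41e-04). RPL7 stood 0.40 above its neighbours (edgeR adjusted p = 1.30e-05). RPL7L1, whose neighbours had a median of -0.30, was not called against them (0.06, edgeR adjusted p = 0.379). RPL26L1 went from 16.6% ± 0.59 to 11.5% ± 0.136 of its pair (SD, n = 3). RPL26 rose by 0.56 on the log2 scale, while RPL26L1 was not called (-0.06, edgeR adjusted p = 0.427). Neither was called against its neighbours, whose medians were 0.44 and -0.14 (0.11 and 0.09, edgeR adjusted p = 0.0841 and 0.206). RPL26L1 was above its own with 10 neighbours on each side, within 1 Mb or with no minimum level (edgeR adjusted p = 3.05e-04, 4.52e-06 and 0.00766). RPL26 was above with a block for the replicate number (edgeR adjusted p = 0.0172). With the transcript length trend taken out, RPL26L1 was lower than in the control (-0.21, edgeR adjusted p = 0.00378). RPL39L, a paralog best known from the testis, stayed at 8.91% ± 0.53 and 8.93% ± 0.27 (SD, n = 3) of its pair with RPL39, which lines the exit tunnel. The exact permutation test gave p = 1.0 for this pair and p = 0.1, the smallest possible, for each of the other 5 (two-sided, 6 pairs, not adjusted). The pairs were counted from reads that can be shared between similar copies.

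RPL39 and RPL39L both rose slightly, by 0.18 and 0.19 on the log2 scale (edgeR adjusted p = 0.00853 and 0.00789). RPL39 stood 0.52 ± 0.06 above its neighbours on the X chromosome, whose median was -0.34 (edgeR adjusted p = 2.18e-07). Both rises were lost without control replicate 2 (0.15 for each, edgeR adjusted p = 0.0804 and 0.0796), and that of RPL39L also without SETDB1-knockout replicate 3 (0.16, edgeR adjusted p = 0.0586). With the trend on coding length taken out, both log2 fold changes were slightly below 0 (-0.02 and -0.01, edgeR adjusted p = 0.826 and 0.891), and their coding sequence is only 153 bases long. Among the parents of paralogs that were not compared, the log2 fold change was 0.22 for RPL3, -0.16 for RPL10 and 0.05 for RPS4X (edgeR adjusted p = 0.00193, 0.0169 and 0.479). RPL10 lost its call when SETDB1-knockout replicate 2 was left out (-0.16, edgeR adjusted p = 0.0604), with library size alone (-0.11, edgeR adjusted p = 0.0684) and with upper-quartile scaling (-0.12, edgeR adjusted p = 0.0554).

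**Figure D5:**
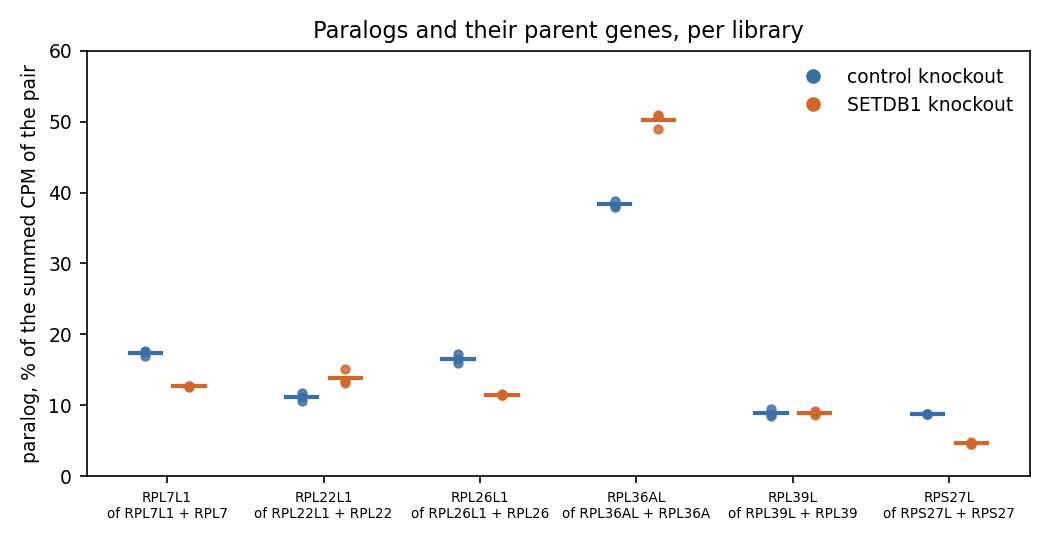
Share of each paralog in the summed CPM of the paralog and its parent gene, in percent, for each library (points) with the group mean (bar). RPL36AL went from 38.0 to 38.9% up to 49.0 to 51.0%, RPS27L went down to 4.47 to 4.86%, and RPL39L overlapped between the groups.

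The control counts per kilobase of coding sequence varied widely among the members. The highest control levels per kilobase were those of RPL41 (9789 CPM per kilobase), whose coding sequence is the shortest of the members at 75 bases, RPS19 (3181) and RPS20 (2951). The scale leaves out the untranslated ends, to which reads map as well. RPL41 rose by 0.37 ± 0.05 on the log2 scale (edgeR adjusted p = 6.17e-06), and RPS20 by 0.21 ± 0.06 (edgeR adjusted p = 0.00424). The lowest levels among genes that are not paralogs were those of RPL17 (151), RPS10 (232) and RPL36A (384). RPL17 shares all of its coding bases with the readthrough gene RPL17-C18orf32, RPS10 shares 92.1% with RPS10-NUDT3 and RPL36A 94.3% with RPL36A-HNRNPH2, and the part of this in their levels was not tested. RPL17 fell by 0.19 ± 0.05 and RPS10 rose by 0.24 ± 0.05 on the log2 scale (edgeR adjusted p = 0.00374 and 5.85e-04). The call of RPL41 was lost with the trend on coding length taken out (0.10, edgeR adjusted p = 0.116). Those of RPS20 and RPS10 were lost with the trend on transcript length taken out (0.04 and 0.06, edgeR adjusted p = 0.563 and 0.316). In all, 11 members shared more than 5% of their coding bases with exons of other genes, and without them 50 of 72 were higher and 9 lower.

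Ribosomal proteins have many processed pseudogenes, and 51 of the members had at least 1 row for a pseudogene of theirs. The counts of these rows were at most 43.4% of those of the parent gene, for RPL7, with a median of 0.72% over the members. The pseudogene rows together took 0.304, 0.314 and 0.337% of all counts in the control and 0.370, 0.390 and 0.396% in the knockout, a ratio of 1.21. Reads of parents and pseudogenes can have been exchanged between rows.

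The start sites given above stand for a larger group. RefSeq start sites were matched for 67 of the 83 members, and 43 of them (64.2%) began with C followed by at least 4 pyrimidines on the gene's strand, against 4.04% of 27305 starts of all genes. Of the 43 members with such a start 27 were higher, 6 lower and 10 not called, with a median log2 fold change of 0.19. Of the 24 without it at this site, 16 were higher, 5 lower and 3 not called, with a median of 0.21. In the 300 bases around the start (250 before, 50 after, both strands), CCGGAAG, a motif of ETS factors, was found in 34.3% of the members' promoters and 10.67% of all promoters. TATAAA was found in 9.0 and 11.95%, the E-box CACGTG in 6.0 and 7.43%, and CGCATGCG in 1.5 and 2.19%. A match describes the letters only, and annotated starts can differ from those used in these cells.

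Genes that work with ribosomal proteins did not all move the same way, and their counts are to be read beside the 31.9% of all genes called higher and the 31.6% called lower. FAU, which encodes a ribosomal protein fused to a ubiquitin-like protein and whose symbol the rule does not take, was higher. FAU had 199, 195 and 199 CPM in the control and 243, 255 and 257 CPM in the knockout (0.35 ± 0.05, edgeR adjusted p = 5.70e-06).

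Of 15 other TOP mRNAs tested, which encode translation factors and related proteins, 6 were higher and 3 lower, with a median of 0.08. These 9 of 15 are a share near the 63.5% of all genes called in either direction. The initiation factor genes EIF3L and EIF3H rose by 0.81 and 0.46 on the log2 scale, while EIF3A fell by 0.42. RACK1, a scaffold protein of the small subunit, fell by 0.20. Of 60 ribosome assembly factors 32 (53.3%) were higher and 15 lower, with a median of 0.15. RRP9 and EMG1, which act on the small subunit precursor, rose by 0.76 and 0.74. FBL, which encodes the rRNA methyltransferase fibrillarin, fell by 0.78 beside neighbours at -0.77, and the helicase gene DDX21 fell by 0.55 beside neighbours at -0.56.

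Of 11 chaperones of ribosomal proteins 7 (63.6%) were higher and 3 (27.3%) lower, with a median of 0.29. GRWD1, a chaperone of RPL3, and HEATR3, which serves RPL5, rose by 0.74 and 0.48, while PDCD2L and BCCIP fell by 0.86 and 0.45 beside neighbours at -0.91 and -0.46. Among 12 genes of the RNA polymerase I machinery, which makes rRNA, 3 were higher and 3 lower, with a median of 0.05. These 6 of 12 are a smaller share than the 63.5% of all genes called. TAF1A and TAF1C rose by 0.30 and 0.24 beside neighbours at -0.07 and 0.08, and TAF1D and POLR1B fell by 0.42 and 0.17 beside neighbours at -0.26 and -0.54. POLR1B thus stood 0.37 above its neighbours (edgeR adjusted p = 2.46e-06), while TAF1D was below its own (-0.15, edgeR adjusted p = 0.0221). The fall of POLR1B lost its call with the trend on transcript length taken out (-0.11, edgeR adjusted p = 0.0691). The call of TAF1A was lost without control replicate 1 (0.20, edgeR adjusted p = 0.0526).

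Among 14 genes that control the translation of TOP mRNAs, 4 were higher and 4 lower (28.6% each), with a median of -0.02. Set beside their neighbours, 3 of the 14 were higher and 6 lower, with a median difference of -0.08. AKT1S1, an inhibitor of mTORC1, rose by 0.66 beside neighbours at 0.83, and EIF4EBP1 by 0.37. EIF4EBP2, another repressor of initiation, fell by 0.82, and TSC1 by 0.49. Of 11 non-coding hosts of small nucleolar RNAs tested 6 (54.5%) were lower, 1 higher and 4 not called, with a median of -0.14. Against their neighbours 3 of the 11 were lower and 1 higher. These 3 are a share near the 26.4% of all genes called lower than their neighbours, and 30.4% of all genes were called higher. SNHG5 fell by 0.64 and SNHG1 by 0.35, and EPB41L4A-AS1 rose by 0.23. In each of these companion genes the calls rest on edgeR's adjusted p under 0.05 over all genes.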

How the data were processed

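The data are RNA-seq read counts of 6 libraries of H1299 cells, 3 of a SETDB1 knockout and 3 of a control knockout, grouped by the sample titles. Per the labels' protocols, libraries were made from total RNA with an Illumina TruSeq kit. The strand setting of kit and counter is not given in these sources. HTSeq, TopHat2, FastQC and the build GRCh38.p7 are named in the submitters' processing notes. The authors deposited raw counts per gene, and every row had a library with more than 10 counts. Identifiers were matched without version to GENCODE 29 (18593 of 18677 rows).

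Counts were analysed in R 4.3.3 with edgeR 4.0.16: filterByExpr by group (17675 genes kept), TMM, robust quasi-likelihood fits and Benjamini-Hochberg adjustment over all genes tested. The SE is the log2 fold change over the root of the F statistic. For the neighbour comparison, the median log2 fold change of up to 25 tested genes on each side (no members, mean log2 CPM above 3) entered as an offset in the knockout columns. Genes with fewer than 10 such neighbours were not compared, a minimum set after first values had been seen. Members had 27 to 50 neighbours over 0.984 to 43.0 Mb. Levels per kilobase use the coding length of the principal transcript. Transcript length is that of the shortest basic transcript with the same coding length, which for a few members is far longer than their usual mRNA (7686 bases for RPL37). Promoters are RefSeq's (GRCh38.p14), and 16 tested members without an entry include RPL5, RPL7 and RPL8.

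The members, the lists and the tests were chosen with earlier results of these data known. Named were SETDB1, the 6 largest rises and falls among called members without overlap, paralogs with their parents, the stalk genes, RPSA, RPL5, RPL11, the 3 called members farthest from their neighbours each way, the 3 highest and lowest levels per kilobase, and up to 2 rising and 2 falling called genes of each companion list. Some genes that this rule takes are not reported here. Other members were named where a comparison needed them, after their values were seen. Alternatives were DESeq2 1.42.0 and its size factors, limma-voom (limma 3.58.1), other scalings, filters, thresholds, neighbour settings, a block for the replicate number and the omission of single libraries. The length trends and the sum with pseudogene rows were chosen after seeing the data. The steps were tested on simulated data.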

Additional observations from a re-analysis of the deposited data

How the results depend on the processing

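There were 26 settings. Those that left mitochondrial genome genes out of the share of counts or put pseudogene rows into it bore on that share alone. Over the others, 1905 of the values for single genes kept their direction and side of the threshold, 97 lost and 29 gained a call, and 41 changed sign. Requiring more than a 1.2-fold change (edgeR's glmTreat) left 23 members higher, 4 lower, 11 above and 0 below their neighbours, and 38 of 89 calls in the companion lists. The 0 stands beside 2 by edgeR's quasi-likelihood test. Taking out the transcript length trend gave 33 higher, 18 lower, 24 above and 11 below, with medians of 0.062 and, against neighbours, 0.0228. The medians of all genes were then 0.0107 and 0.0159. Taking out the coding length trend gave medians of 0.12 and 0.10, and 5 below. Neighbours within 1 Mb could be used for 55 members, with 32 above and 1 below. The count below neighbours was 4 with 50 neighbours on each side, 5 with no minimum level and 1 at an adjusted p under 0.01. Library size alone and upper-quartile scaling gave medians of 0.25 and 0.24, and moved the median of all genes from 0.01 to 0.05 and 0.04.

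With one library left out, 45 to 59 members were higher, 10 to 12 lower, 37 to 61 above and 1 to 3 below their neighbours, the companion lists held 72 to 89 calls, the medians were 0.18 to 0.26 and, against neighbours, 0.15 to 0.20, and the share of counts differed by 0.569 to 0.774 percentage points. Same-numbered libraries did not deviate together (r = 0.0878, -0.0628 and 0.0248), so the numbers do not pair the samples. The replicate block gave 59 higher, 13 lower, 58 above and 4 below.

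Signs turned in 41 values, 9 of them called in at least one of the fits compared and 32 called in neither, and the cause was not tested. Of the 9, RPL13A stood at -0.19 against neighbours with no minimum level. Without the transcript length trend, RPS19, RPS12, RPL17 and RPL41 stood at -0.13, -0.15, -0.14 and -0.0265 against neighbours, and RPL39 at -0.0356. Without the coding length trend, RPL39L and RPL39 stood at -0.0101 and -0.0156 and RPL41 at -0.14 against neighbours.

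The 32 uncalled values are against neighbours unless stated. With 10 neighbours, RPL13A stood at -0.0251 and RPL3 at 0.0046. With 50, RPLP0 stood at 0.052. Within 1 Mb, RPL13A, RPL3 and RPL26 stood at -0.018, 0.0235 and -0.0806. With no minimum level, RPL3 and RPL26 stood at 0.018 and -0.0298. Without the coding length trend, RPL13A, RPS12, RPL3, RPL22, RPL36A and RPLP0 stood at -0.0286, -0.0321, 0.0299, -0.0325, -0.0397 and 0.0061. Without the transcript length trend, RPL13A, RPS24, RPL26L1, RPL26 and RPL36A stood at -0.0256, -0.0562, -0.0539, -0.0611 and -0.12, and against the control RPS4X and RPLP0 stood at -0.0215 and -0.0232. Library size alone gave RPL22 and RPL5 0.0056 and 0.0084 against the control. With one library left out, RPL13A stood at -0.023 to 0.0355, RPS16 at -0.0405 to 0.0066, RPL3 at -0.0244 to 0.0118 and RPLP0 at -0.0635 to 0.0643, and against the control RPL22 stood at -0.0864 to 0.0268 and RPL5 at -0.0721 to 0.0185.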
